A study of Mus musculus with 8 samples.

Results

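Myeloid cells that enter the brain from the blood were compared between 24 h and 48 h after a transient stroke, in the hemisphere of the occlusion (ipsilateral). Cells were chosen by summed transcripts per 10000 UMIs (unique molecular identifiers, each standing for 1 captured transcript). For both sets P2ry12, Siglech, Gpr34, Sparc and Olfml3, transcripts typical of microglia, had to sum to under 10. The monocyte/macrophage set took cells in which Ccr2, Plac8, Vcan, Fn1, Ly6c2 and Arg1 summed to at least 10, with at most 2 raw UMIs of Csf3r, the receptor for the neutrophil growth factor G-CSF. The neutrophil set took cells in which S100a8, S100a9, G0s2 and Retnlg summed to at least 50, with at least 1 UMI of Csf3r and 0 of Ccr2. The sets held 6762 and 5049 cells, with 210 cells in both. Together they made up 11601 of the 20291 ipsilateral cells used, out of 38025 cells used in the series.

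Monocytes leave the bone marrow, follow the chemokine CCL2 into injured tissue through the receptor CCR2, and turn there into macrophages that take up dead cells, myelin and lipid. Neutrophils are short-lived granulocytes that make their granule proteins while they mature in the marrow, rely largely on glycolysis, and release proteases and cytokines in tissue. After a stroke both cross the damaged vessel wall and add to the microglia, the resident macrophages of the brain.

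The mice were male C57BL/6J aged 8 to 9 weeks, labelled WT (Prdx1+/+) or Prdx1-/-. In all groups a suture passed up the vessel closed the middle cerebral artery for 60 min and was then withdrawn. The 48 h side of the comparison held the ipsilateral library labelled WT and the one labelled Prdx1-/-, and the 24 h side the same 2 labels. Each combination was 1 library of live-sorted cells from a dissociated, myelin-depleted hemisphere (10x Genomics 3′ chemistry), and the number of animals behind it is not given in the sources used here, so that p-values here describe spread among libraries, in which technical spread cannot be told apart from that among animals. In what follows, 4 values always stand in the order WT 24 h, Prdx1-/- 24 h, WT 48 h, Prdx1-/- 48 h, by label.

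The ipsilateral libraries held 62580490 to 70111421 UMIs as deposited. Median depth was 14093 to 15830 UMIs per cell in the monocyte/macrophage set, and 5852, 5635, 3496.5 and 4041 UMIs in the neutrophil set. Pairs of libraries shared 3 to 17 cell barcodes. The cell types were checked on markers outside the gates, as summed CPM (counts scaled to a common library total), on the scale of edgeR's trimmed mean of M values. The 8 neutrophil markers summed to 12552, 12478, 8295 and 16583 CPM in the neutrophil set and to 1849, 1535, 622 and 4598 CPM in the monocyte/macrophage set. The 6 monocyte and macrophage markers summed to 8576, 6637, 7318 and 10801 CPM in the monocyte/macrophage set and to 1811, 1654, 1156 and 5131 CPM in the neutrophil set. Both names thus held, with transcripts of the other set at their highest in the 48 h library labelled Prdx1-/-. Cells near the limit were few for the neutrophil set. More lay near that of the monocyte/macrophage set, which held 712, 1625, 2518 and 1907 cells. Between 8 and 10 on the monocyte/macrophage sum, just outside, lay 103, 105, 95 and 170 cells, and between 10 and 12.5, just inside, lay 47, 53, 78 and 114. For neutrophils 6, 22, 7 and 25 cells lay between 40 and 50, and 0, 0, 3 and 4 between 50 and 62.5.

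Prdx1, which encodes the hydrogen peroxide-removing enzyme peroxiredoxin 1, did not follow the labels at 24 h. In the monocyte/macrophage set it stood at 409, 372, 1087 and 7.90 CPM, from 4137, 8940, 44046 and 269 UMIs. Only the 48 h library labelled Prdx1-/- was depleted, and the 24 h library with that label held the gene at the level of its WT counterpart. With every cell thinned to 2000 UMIs, 39.2%, 36.1%, 75.1% and 1.58% of these cells had a Prdx1 UMI (68.0%, 62.5%, 98.1% and 12.2% before thinning). Neutrophils held little Prdx1, at 35.4, 43.6, 60.6 and 6.01 CPM. Labelled genotype was a term of the main fit of each set, so a gene whose level depends on Prdx1 cannot be told apart from one that changes with time under that label.

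Among the ipsilateral libraries the 48 h library labelled Prdx1-/- also stood apart in its makeup. Cells with at least 50 per 10000 UMIs of Camp, Ngp and Ltf, granule genes made by neutrophils that are still maturing, were 0.967%, 1.78%, 0.980% and 15.4% of the neutrophil set. In that last library they gave 43.7% of the set's UMIs. In the monocyte/macrophage set such cells were 0.421%, 0.554%, 0.199% and 8.86%, and cells with at least 20 per 10000 of the neutrophil gate genes were 12.2%, 8.31%, 1.71% and 21.1%. In the neutrophil set, cells with at least 10 per 10000 of the monocyte/macrophage gate genes were 16.8%, 9.53%, 5.07% and 17.8%. Cells with at least 3 UMIs of T, NK or B cell genes were 0.107%, 0.534%, 0.163% and 3.16% of the neutrophil set. In the contralateral libraries, cells over the Camp, Ngp and Ltf limit were 24.7%, 4.76%, 11.25% and 15.0% of the neutrophil set. Those sets were small, at 89, 42, 160 and 293 cells. In the contralateral monocyte/macrophage set they were 7.69%, 0.562%, 2.34% and 4.27%. The ipsilateral 24 h neutrophil sums had a peculiarity of their own. Transcripts of immature neurons (neuroblasts) came to 1142, 1523, 13 and 78 UMIs, and 1108 and 1470 of the 24 h UMIs lay in 7 and 11 cells. Results are therefore given beside fits that leave such cells out.

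**Figure D1:**
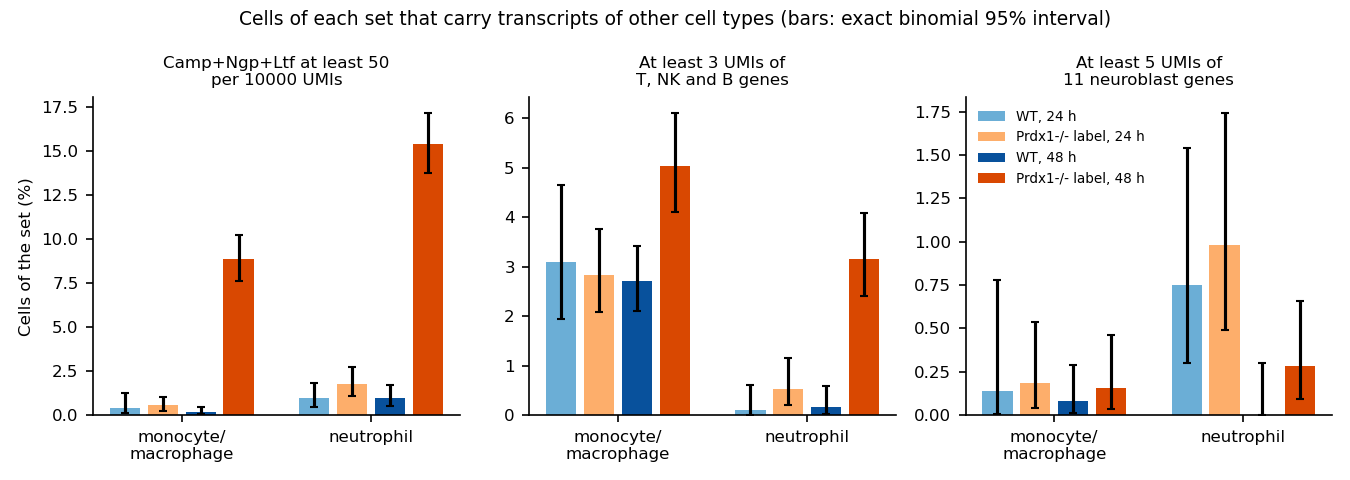
Percent of cells of each set (y axis) that carry transcripts of other kinds of cells, by set and ipsilateral library (colours), with exact binomial 95% intervals that cover counting error only. The 48 h library labelled Prdx1-/- held 8.86% and 15.4% of cells over the Camp, Ngp and Ltf limit, against at most 1.78% in the other ipsilateral libraries. In the 24 h neutrophil sets lay 7 and 11 neuroblast-marker cells.

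Both sets took a larger share of the ipsilateral cells at 48 h. The monocyte/macrophage set was 14.0% (95% exact binomial interval 13.1 to 15.0), 29.9% (28.7 to 31.1), 51.1% (49.7 to 52.5) and 39.4% (38.0 to 40.8) of cells. Its mean was 21.9% ± 11.2 (SD, n = 2 libraries) at 24 h and 45.2% ± 8.31 at 48 h, and both 48 h libraries lay above both 24 h libraries. The neutrophil set was 18.3% (17.3 to 19.4), 20.6% (19.6 to 21.7), 24.8% (23.6 to 26.1) and 36.6% (35.2 to 37.9), again with no overlap between times. The differences of 23.3 and 11.2 percentage points each had an exact two-sided permutation p = 0.333, the smallest that 2 libraries against 2 allow. Under the label WT the monocyte/macrophage set gained more than the neutrophil set (from 14.0% to 51.1% against 18.3% to 24.8%). Under the label Prdx1-/- the larger gain was that of the neutrophil set (from 20.6% to 36.6% against 29.9% to 39.4%). The difference between labels was not tested. The intervals cover counting error only.

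Cells at or over the microglia limit numbered 1939, 1725, 536 and 434, and fewer of them raise every other share. Out of the cells under that limit, monocyte/macrophage cells were 22.7%, 43.7%, 57.4% and 43.2%, a mean difference of 17.1 points (exact two-sided permutation p = 0.667). The times overlapped, and under the label Prdx1-/- this share was no higher at 48 h. Neutrophils were 29.6%, 30.2%, 27.9% and 40.2% on this basis, a difference of 4.09 points (exact two-sided permutation p = 1), and the library labelled WT at 48 h lay below both 24 h libraries. In the contralateral hemisphere, the background of the injury, the monocyte/macrophage set was 2.57%, 3.57%, 9.55% and 12.9% of cells, and the neutrophil set 1.95%, 0.843%, 3.98% and 7.03%.

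**Figure D2:**
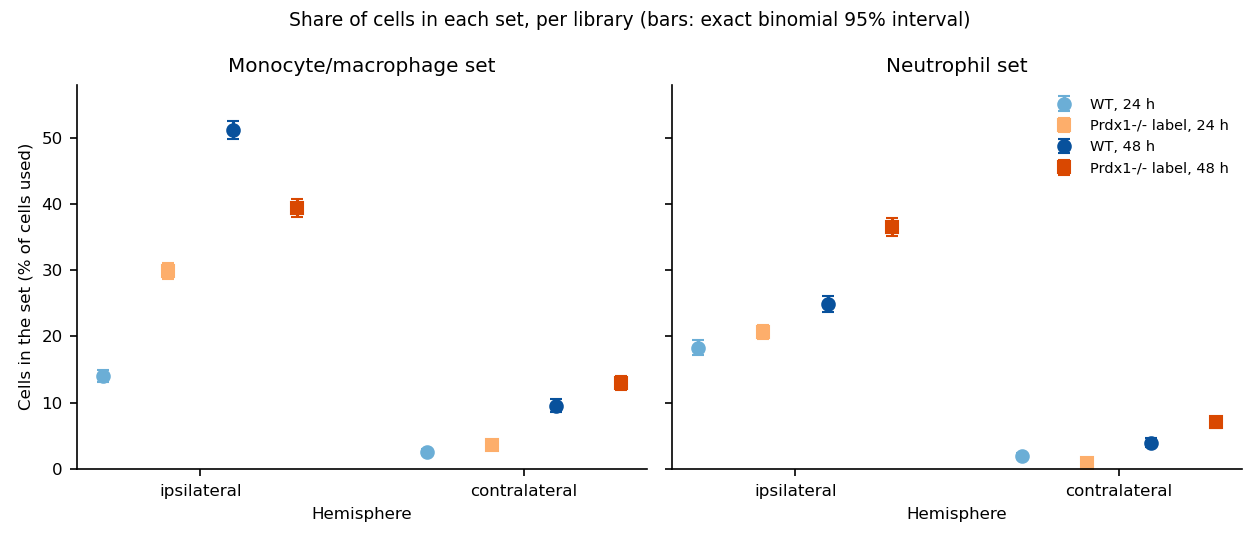
Share of the cells used in each library (y axis, percent) that fell in the monocyte/macrophage set (left) and the neutrophil set (right), for both hemispheres, with exact binomial 95% intervals. The ipsilateral 48 h libraries, at 51.1% and 39.4% and at 24.8% and 36.6%, lie above the 24 h libraries in both sets.

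In monocytes and macrophages few genes passed the test between 24 h and 48 h. UMI counts were summed over the cells of the set in each library, so that fewer cells expressing a gene and less of its RNA per cell cannot be told apart, and tested with edgeR's quasi-likelihood test with labelled genotype as a term (Benjamini-Hochberg adjusted p under 0.05). Of 12544 genes tested, 5 rose (0.0399%) and 3 fell (0.0239%), while 1525 had an unadjusted p under 0.05, and DESeq2 called 78 higher and 118 lower. Ms4a7, a membrane protein gene of maturing macrophages, was 1 of the 5, and Ccl17, F3 and Bcl2a1a were those that fell. The other 4 that rose were Ctsg, Mpo, Ms4a3 and BC100530, known from neutrophils or their precursors. Ctsg and Mpo are primary granule genes, Ms4a3 is a gene of granulocyte precursors, and BC100530 was in the list of tertiary granule and maturity genes. The count depended on cells that also carried neutrophil transcripts: with cells of at least 20 per 10000 of the neutrophil gate genes left out, 369 genes rose (3.01%) and 322 fell (2.62%) of 12277. With only the cells over the Camp, Ngp and Ltf limit left out 75 rose (0.601%) and 71 fell (0.569%). When cells over that limit, with T, NK and B genes or with neuroblast genes were left out of the former fit as well, a choice made after seeing the data, 338 rose (2.82%) and 298 fell (2.48%) of 11995. Without WT at 24 h 0 genes passed by edgeR (771 unadjusted), without Prdx1-/- at 24 h 0 (891 unadjusted), without WT at 48 h 421 and without Prdx1-/- at 48 h 389. These fits of 3 libraries have no genotype term, and the lone library of a time is assumed to vary like the 2 of the other time, which alone give the spread. Below, "with mixed cells left out" stands for the fit without cells that carried neutrophil transcripts. Each gene was fitted in up to 21 alternative settings (other gates, filters, scaling and tools, and each library left out), and how many of them it passed is given beside genes whose test is printed.

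Ms4a7 stood at 53.0, 29.5, 299.6 and 126 CPM. Both 48 h libraries lay above both 24 h libraries, and the log2 fold change was 2.29 (SE 0.17, adjusted p = 0.0386, edgeR), with 12 of 21 alternatives passing, all upward (1.61 to 2.88). Ccl17, a chemokine of dendritic cells and alternatively activated macrophages, stood at 20.4, 11.1, 0.839 and 0.558 CPM. It fell by 4.46 on the log2 scale (SE 0.23, adjusted p = 0.0226) and passed in 13 of 21 alternatives. F3, the tissue factor that starts coagulation, went from 10.7 and 22.97 to 1.88 and 4.78 CPM (log2 fold change -2.37, SE 0.18, adjusted p = 0.0451, 13 of 21). Bcl2a1a, a survival gene of the BCL2 family, went from 72.0 and 105 to 19.2 and 29.6 CPM (log2 fold change -1.87, SE 0.12, adjusted p = 0.037, 14 of 21). Its reads are hard to separate from those of the near-identical Bcl2a1b and Bcl2a1d, so the value is uncertain for the single gene.

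The 4 genes known from neutrophils or their precursors were highest in the 48 h library labelled Prdx1-/-. Mpo (myeloperoxidase) stood at 0.297, 14.6, 8.47 and 205 CPM, Ctsg (cathepsin G, a granule protease) at 1.09, 36.6, 6.84 and 249.6 CPM and Ms4a3 at 0.396, 11.9, 1.97 and 90.8 CPM. BC100530, of the stefin protease inhibitors, had 0, 12, 0 and 1569 UMIs. For none of the 4 did the times separate, since WT at 48 h lay below Prdx1-/- at 24 h. Without the 48 h library labelled Prdx1-/- the log2 fold changes of Ctsg and Ms4a3 were -1.55 and -1.77. That fit has no genotype term, and for both genes WT at 48 h lay between the 24 h libraries. Under the label WT alone both were higher at 48 h. Mpo passed in 13, Ctsg in 9 and Ms4a3 in 11 of 21 alternatives, and BC100530 in 8 of the 16 in which it was tested. Of 18 tested primary and secondary granule genes 2 rose and 0 fell in the fit of all cells of the set. With mixed cells left out 6 rose and 1 fell (3.01% and 2.62% over all genes). With cells of the other 3 kinds left out too 6 rose and 2 fell (2.82% and 2.48% over all genes). Calls in this list thus remained without those cells, and their source was not tested.

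Of the inflammatory cytokine and chemokine genes only Ccl17 passed in the fit of all cells of the set, while with mixed cells left out 11 cytokine, 3 CC and 3 CXC chemokine genes fell. Of 22 tested genes of pro-inflammatory cytokines and NF-kB feedback, 0 passed by edgeR, 12 were lower at an unadjusted p under 0.05 and DESeq2 called 8 lower. In 14 of them both 48 h libraries lay below both 24 h libraries, and in 1 above. Over all genes the shares were 22.0% below and 24.7% above, and they are the measure for the lists that follow in this set. The lists of both sets were chosen with earlier results of these data known, so their counts are descriptions. The list's median log2 fold change was -0.67, against 0.02 over all genes tested. Il1a (interleukin 1 alpha) stood at 211, 309.7, 58.7 and 105 CPM (log2 fold change -1.70, SE 0.16, adjusted p = 0.0635, passing in 9 of 21 alternatives). Il23a, the specific subunit of interleukin 23, stood at 9.40, 10.2, 1.56 and 1.79 CPM (-2.55, SE 0.23, adjusted p = 0.0623, 13 of 21). Times did not overlap for these genes. Il6 (interleukin 6) did overlap, at 21.1, 64.1, 9.28 and 31.8 CPM, with the lower value at 48 h under each label. Of 22 tested immediate-early genes, which tissue dissociation can induce, 0 passed by edgeR, 8 were lower at an unadjusted p under 0.05, DESeq2 called 4 lower, and 13 were non-overlapping and lower and 1 higher. Their part in the cytokine results was not tested.

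Among 11 tested CC chemokines, Ccl17 was the only gene that passed, 5 were non-overlapping and lower, 1 was non-overlapping and higher, and the median was -1.25. Ccl4, which draws monocytes and T cells, stood at 1289, 762, 416 and 414 CPM. Of 8 tested CXC chemokines 0 passed by edgeR (3 lower at an unadjusted p under 0.05, 1 lower by DESeq2) and 3 were non-overlapping and lower. Cxcl3 and Cxcl2, which draw neutrophils, were 2 of them. Cxcl3 stood at 557, 2098, 187 and 390.0 CPM and Cxcl2 at 6579, 12989, 3713 and 3850.3 CPM. Genes for chemokine and adhesion receptors were lower without overlap in 16 of 22, higher in 0, with a smaller median of -0.33. For the cytokine Osm (oncostatin M) the levels were 496, 697, 308 and 296 CPM. Il1r2, a decoy receptor that binds interleukin 1 without signalling, stood at 316, 297, 102 and 141 CPM.

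Interferon response genes, which cells switch on after sensing interferon, did not pass in the fit of all cells of the set, and 15 rose with mixed cells left out. Of 36 tested, 0 passed by edgeR, 21 were higher at an unadjusted p under 0.05 and 0 lower, and DESeq2 called 8 higher. In 18 the times did not overlap and 48 h was higher, in 0 lower, and the median log2 fold change was 0.60. Rsad2 (viperin, an antiviral enzyme) stood at 39.1, 18.4, 84.1 and 42.2 CPM, and Mx1, an antiviral GTPase, at 7.02, 6.16, 24.6 and 13.1 CPM. Ifit3, which binds foreign RNA together with Ifit1, stood at 13.7, 3.75, 50.03 and 18.6 CPM (log2 fold change 2.08, SE 0.17, adjusted p = 0.0565, passing in 13 of 21 alternatives). In each of these 3 genes both 48 h libraries were above both 24 h libraries. Ifit1 overlapped, at 19.2, 6.58, 40.9 and 16.9 CPM, since labels differed as well as times: WT was above Prdx1-/- at each time.

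Genes of lipid-laden and lysosome-rich macrophages were divided. Of 27 tested genes of lipid-associated macrophages 0 passed by edgeR (12 higher and 4 lower at an unadjusted p under 0.05, 7 and 3 by DESeq2). In this list 12 were non-overlapping and higher and 5 non-overlapping and lower, with a median of 0.50. With mixed cells left out 12 rose and 3 fell. Gpnmb, a lysosomal glycoprotein of lipid-laden macrophages, stood at 13.9, 9.66, 125 and 44.2 CPM (log2 fold change 2.67, SE 0.28, adjusted p = 0.134, passing in 9 of 21 alternatives). Trem2, a lipid-sensing receptor, stood at 169, 127, 361 and 206 CPM. Apoe (apolipoprotein E) stood at 5899, 4538, 13369 and 7681 CPM. All 3 were higher at 48 h without overlap, by a larger ratio under the label WT, a difference that was not tested. Lower without overlap were Cd9, a tetraspanin, at 536, 789, 222 and 248 CPM, and Ch25h (cholesterol 25-hydroxylase) at 9.40, 3.04, 1.46 and 0.440 CPM. Spp1 (osteopontin) was likewise lower, at 3968, 3279, 2708 and 1469 CPM. The lipase gene Lpl stood at 103, 46.5, 11.2 and 20.5 CPM and passed in 0 of 21 alternatives.

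Of 27 lysosome and phagocytosis genes 0 passed by edgeR (7 higher and 2 lower at an unadjusted p under 0.05, 3 higher by DESeq2), and 8 were non-overlapping and higher, 3 lower (median 0.17). Over all genes 24.7% were non-overlapping and higher and 22.0% lower, so the count of higher lysosome genes was near the share of all genes. Lgmn (legumain, a lysosomal protease) stood at 707, 643, 1862 and 1048 CPM, Ctsb (cathepsin B) at 1207, 987, 2517 and 1548 CPM, and Npc1, which exports cholesterol from lysosomes, at 40.1, 43.2, 98.2 and 71.2 CPM. Of 22 NRF2 targets, the genes of the antioxidant programme, 10 were non-overlapping and higher and 2 lower. The glutathione synthesis gene Gclm stood at 36.5, 53.9, 86.0 and 99.3 CPM, here with the higher value of each time under the label Prdx1-/-. Of 20 glycolysis genes 10 were non-overlapping and lower and 1 higher (median -0.28), and Hk2 (hexokinase 2) stood at 151, 166, 72.3 and 70.7 CPM. Of 13 genes of MHC class II presentation 6 were non-overlapping and lower and 0 higher (median -0.56). The 6 were Cd80, Cd83, Cd86, H2-DMa, H2-DMb2 and H2-Ob. The list's summed level overlapped between times, at 7427, 9390, 7975 and 3647 CPM, and was higher at 48 h under the label WT. Of 18 dendritic cell markers, the other cell type this gate can hold, 11 were lower and 0 higher (median -0.63). T and NK cell genes were non-overlapping and lower in 10 of 16, with summed levels of 209, 168, 130 and 106 CPM. B cell genes were so in 1 of 8, with summed levels of 166, 105, 54.5 and 126 CPM. The part of B cells or of other lymphocytes in the MHC result was not tested. In the NRF2, glycolysis, MHC class II, dendritic and T and NK lists 0 passed by edgeR. At an unadjusted p under 0.05 the NRF2 list had 3 higher and 1 lower, glycolysis 1 and 6, MHC class II 0 and 5, dendritic cells 0 and 7 and T and NK cells 0 and 8, and DESeq2 called 1 and 1, 0 and 2, 0 and 0, 0 and 1 and 0 and 1. Of 28 cell cycle genes 0 passed by edgeR (9 higher unadjusted, 6 higher by DESeq2), 5 were non-overlapping and higher, a share under that of all genes, and the median was 1.27. With mixed cells left out 8 rose (median 0.96), and with cells of the other 3 kinds left out too 10 rose (median 0.98). Their summed level was 1191, 1437, 1328 and 2807 CPM, highest in the ipsilateral library that held most maturing neutrophils. Rrm2 (ribonucleotide reductase) stood at 0.593, 4.91, 2.57 and 37.7 CPM, and its log2 fold change without that library was -0.25.

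**Figure D3:**
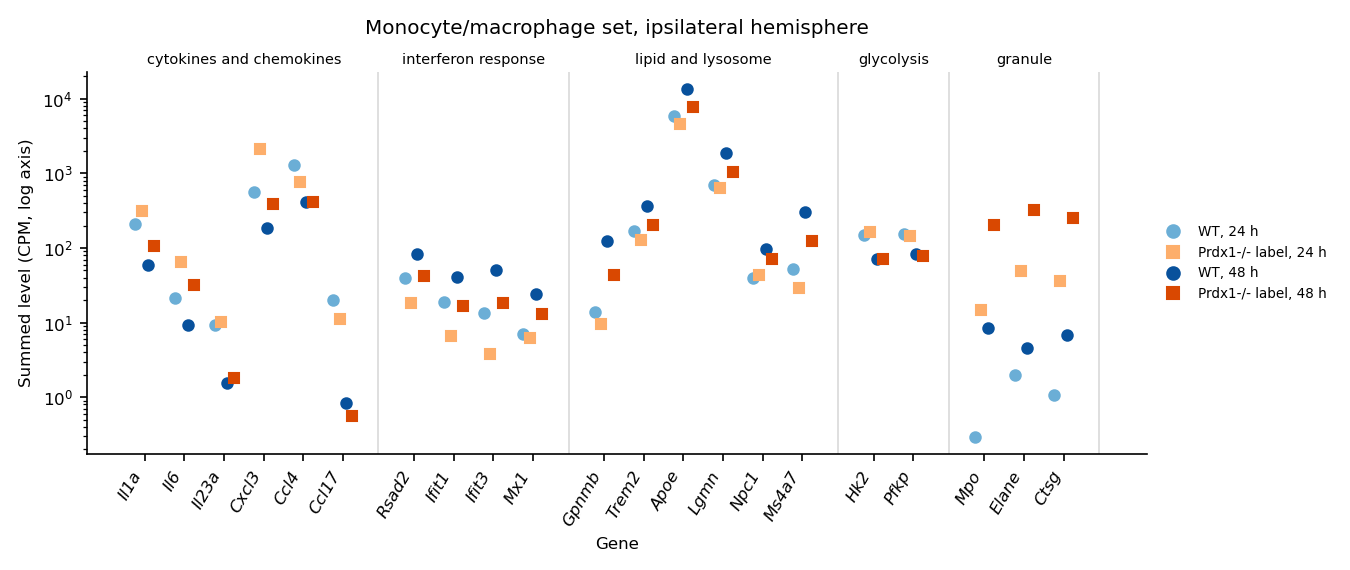
Summed level in the monocyte/macrophage set (y axis, CPM, log axis) of genes grouped by role, 1 point per ipsilateral library (colours and shapes). The 6 cytokine and chemokine genes plotted lie lower, and the plotted interferon genes and Gpnmb, Trem2, Apoe, Lgmn, Npc1 and Ms4a7 higher, at 48 h under each label, while Mpo, Elane and Ctsg are highest in the 48 h library labelled Prdx1-/-.

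In neutrophils genes such as Prok2, Thbs1 and Spp1 fell between 24 h and 48 h, and some granule, cell cycle and interferon genes rose. The summed level of the granule list rose only under the label Prdx1-/-. Of 9663 genes tested 141 rose (1.46%) and 275 fell (2.85%), again by edgeR's quasi-likelihood test. These calls rest on the genotype label as a term: without it 0 rose and 1 fell (1100 genes at an unadjusted p under 0.05), and in the fit of all 8 libraries 0 passed (1043 unadjusted), while DESeq2, with the term, called 80 higher and 221 lower. The cells left out also decided which calls held. Kept apart from cells of the other set, neutrophils had fewer calls than monocytes and macrophages, and the number of calls was not tested between the sets. With cells of at least 10 per 10000 of the monocyte/macrophage gate genes left out, 57 rose (0.608%) and 224 fell (2.39%), and 43 of the 141 and 172 of the 275 were among them. With cells over the Camp, Ngp and Ltf limit left out 38 rose (0.394%) and 170 fell (1.76%), and 29 of the 141 and 148 of the 275 were still called, and with neuroblast-marker cells left out 89 and 90 were (108 of the 275 then had too few counts to be tested). Leaving out the cells with T, NK or B genes left 0 higher and 1 lower by edgeR (Tubb2b), with 1408 genes at an unadjusted p under 0.05. Thbs1 then had a log2 fold change of -2.92 without passing. With all 3 kinds left out together 48 rose (0.534%) and 188 fell (2.09%) of 8983, of which 13 and 100 were among the calls above. These choices were made after seeing the data, and the last fit kept the cells that carried monocyte/macrophage transcripts. Without WT at 24 h 28 genes passed, without Prdx1-/- at 24 h 27, without WT at 48 h 1817 and without Prdx1-/- at 48 h 974, in fits of the same kind as for monocytes and macrophages above.

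Part of the genes of activated tissue neutrophils fell. Of 29 tested, 7 fell, 0 rose and 22 did not pass, 20 were non-overlapping and lower and 3 higher, and the median log2 fold change was -0.89, against 0.05 over all genes tested. Over all genes 22.2% were non-overlapping and lower and 22.9% higher. With the 3 kinds of cells left out 10 of this list fell and 1 rose. Prok2 (prokineticin 2, a chemoattractant that neutrophils release) stood at 384, 204, 29.3 and 26.1 CPM. It fell by 3.33 on the log2 scale (SE 0.38, adjusted p = 0.000309, passing in 18 of 21 alternatives). Spp1 stood at 972, 494, 136 and 61.9 CPM (-2.92, SE 0.42, adjusted p = 0.00131, 15 of 21), and Upp1 (uridine phosphorylase) at 450.3, 346, 75.5 and 66.4 CPM (-2.48, SE 0.37, adjusted p = 0.00169, 16 of 21). For all 3 genes the times were far apart under both labels. Nos2 (inducible nitric oxide synthase) fell from 176 and 152 to 90.7 and 36.9 CPM (-1.50, SE 0.36, adjusted p = 0.0322, 12 of 21). Cxcl3, in this list too, stood at 3594, 5205, 1596 and 772 CPM without passing (-1.96, SE 0.58, adjusted p = 0.0821, 7 of 21). Immediate-early genes were lower without overlap in 12 of 22 and higher in 1 (1 fell, Egr3, and the median was -0.55), and the 5 erythrocyte genes tested summed to 8787, 17390, 3183 and 8010 CPM. Their part in these results was not tested.

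Thbs1 (thrombospondin 1, a matrix protein that activates TGF-beta) stood at 4730.0, 3595, 601 and 405 CPM, far lower in both 48 h libraries. Its log2 fold change was -3.06 (SE 0.53, adjusted p = 0.004), and it was negative in all 21 alternatives (-3.39 to -2.58), of which 15 passed. Of 18 tested genes of proteases and matrix, 4 fell, 0 rose and 14 did not pass, 13 were non-overlapping and lower, and the median was -1.22. Thbs1 was in this list, as was Mmp19, a matrix metalloproteinase, which went from 159.6 and 205 to 72.5 and 42.5 CPM (-1.71, SE 0.36, adjusted p = 0.0184, 15 of 21). Tgm2, a protein-crosslinking enzyme, went from 535 and 436 to 254 and 102 CPM (-1.59, SE 0.41, adjusted p = 0.0448, 8 of 21). F3 fell here as in the monocyte/macrophage set, from 36.6 and 127 to 14.9 and 12.6 CPM (-2.36, SE 0.50, adjusted p = 0.0446, 8 of 21).

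A few hypoxia and glycolysis genes fell. Of 18 tested hypoxia-induced genes 2 fell, 0 rose and 16 did not pass, with 13 non-overlapping and lower, 0 higher and a median of -0.76. Of 20 glycolysis genes 2 fell, 0 rose and 18 did not pass, with 12 non-overlapping and lower, 0 higher and a median of -0.59. Hilpda, which protects stored lipid droplets from lipase under hypoxia, stood at 834, 1141, 331 and 248 CPM (-1.77, SE 0.44, adjusted p = 0.0368, passing in 11 of 21 alternatives). Egln3, an oxygen-sensing prolyl hydroxylase, stood at 96.8, 64.4, 41.7 and 27.5 CPM (-1.22, SE 0.29, adjusted p = 0.0283, 11 of 21). The phosphofructokinase genes Pfkl (105, 87.6, 45.5 and 31.3 CPM) and Pfkp (107, 88.2, 41.6 and 37.6 CPM) fell by 1.34 (SE 0.30, adjusted p = 0.0186, 15 of 21) and 1.30 (SE 0.29, adjusted p = 0.0215, 14 of 21). With the 3 kinds of cells left out 6 glycolysis genes fell. Gapdh, the glycolytic dehydrogenase, stood at 1867, 2116, 897 and 1101 CPM without passing (adjusted p = 0.289, 3 of 21).

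Cytokine and receptor genes moved in different directions. Of 19 tested genes of pro-inflammatory cytokines and NF-kB feedback 2 fell (Osm and Nos2) and 0 rose, and the median was -0.36. Osm stood at 298, 567, 109 and 139 CPM (-1.74, SE 0.38, adjusted p = 0.0184, passing in 15 of 21 alternatives). Il1b (interleukin 1 beta), at 10001, 18543, 14288 and 7999 CPM, overlapped between times, and Tnf did too, at 492, 810.0, 1105 and 734 CPM. Both passed in 0 of 21 alternatives. Il23a was non-overlapping and higher, at 28.8, 97.6, 109 and 129.8 CPM, without passing (1.15, SE 0.39, adjusted p = 0.145, 4 of 21). Tnfsf9, a costimulatory ligand of the TNF family, stood at 4.80, 16.7, 95.8 and 54.4 CPM (2.88, SE 0.67, adjusted p = 0.0977, 7 of 21). Fpr1, the receptor for bacterial and mitochondrial formyl peptides, fell from 644 and 609 to 234 and 185 CPM (-1.59, SE 0.40, adjusted p = 0.0359, 11 of 21). Ccr7, a homing receptor for lymph nodes, rose from 2.40 and 2.09 to 13.8 and 6.28 CPM (2.05, SE 0.48, adjusted p = 0.0265, 12 of 21).

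Of the interferon response genes a few rose in neutrophils. Of 32 tested 4 rose, 0 fell and 28 did not pass, 12 were non-overlapping and higher and 1 lower, and the median was 0.43. With the 3 kinds of cells left out 6 rose and 0 fell. Gbp5, a guanylate-binding protein of cell-autonomous defence, stood at 6.80, 3.86, 32.4 and 13.2 CPM (2.02, SE 0.38, adjusted p = 0.00629, passing in 15 of 21 alternatives). Ifi47, an interferon-induced GTPase, rose from 4.999 and 2.58 to 17.5 and 8.84 CPM (1.79, SE 0.42, adjusted p = 0.0256, 10 of 21). Rsad2 rose by 1.10 (SE 0.29, adjusted p = 0.0477, 6 of 21), at 51.0, 22.4, 108 and 48.5 CPM. As in the monocyte/macrophage set the level was higher under the label WT at each time, and the times overlapped for Rsad2 by that much. Irf1, a transcription factor induced by interferon gamma, stood at 71.6, 92.9, 302 and 169.7 CPM (1.47, SE 0.38, adjusted p = 0.0499, 9 of 21).

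The promoters of interferon response genes carry a shared letter pattern, and those of Rsad2, Ifit3 and Gbp5, described above, are shown beside that of Hilpda, a hypoxia gene that fell in neutrophils. Windows of 250 bases before each RefSeq transcript start (GRCm38.p6) were searched on both strands for GAAA, any 2 bases and GAAA (the core of the interferon-stimulated response element) and for ACGTG, the core of the hypoxia response element. The former was in 978 of 32851 promoters (2.98%), and in 16 of 31 promoters of the interferon list (51.6%; 28 of its 36 genes matched). ACGTG was in 16.6% of all promoters, in 15 of 29 of the hypoxia list (51.7%) and in 12 of 28 of the glycolysis list (42.9%). The lists hold genes of known function and were chosen with earlier results of these data known. Their share of known motifs is thus a description of the genes and not of these samples. The sequences below run 5′ to 3′ on the gene's strand, from RefSeq, with the matched letters in capitals (on the opposite strand GAAA reads as TTTC). They are Rsad2 (chr12:26456453-26456702, minus strand), Ifit3 (chr19:34583279-34583528, plus strand, 2 matches), Gbp5 (chr3:142496684-142496933, plus strand) and Hilpda (chr6:29272376-29272625, plus strand).
Rsad2: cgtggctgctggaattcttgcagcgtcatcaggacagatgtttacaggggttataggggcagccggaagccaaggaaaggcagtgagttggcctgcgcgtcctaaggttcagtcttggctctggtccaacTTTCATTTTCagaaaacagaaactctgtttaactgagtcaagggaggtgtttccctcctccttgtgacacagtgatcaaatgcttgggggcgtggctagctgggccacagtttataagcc
Ifit3: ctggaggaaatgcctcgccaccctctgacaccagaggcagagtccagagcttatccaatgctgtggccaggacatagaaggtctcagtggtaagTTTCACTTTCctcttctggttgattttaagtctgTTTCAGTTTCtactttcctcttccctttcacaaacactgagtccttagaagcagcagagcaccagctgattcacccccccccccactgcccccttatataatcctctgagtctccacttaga
Gbp5: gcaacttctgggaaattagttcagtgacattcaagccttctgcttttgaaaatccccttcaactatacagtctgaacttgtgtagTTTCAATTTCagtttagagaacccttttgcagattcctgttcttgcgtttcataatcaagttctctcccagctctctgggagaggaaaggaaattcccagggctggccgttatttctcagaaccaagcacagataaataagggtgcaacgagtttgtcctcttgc
Hilpda: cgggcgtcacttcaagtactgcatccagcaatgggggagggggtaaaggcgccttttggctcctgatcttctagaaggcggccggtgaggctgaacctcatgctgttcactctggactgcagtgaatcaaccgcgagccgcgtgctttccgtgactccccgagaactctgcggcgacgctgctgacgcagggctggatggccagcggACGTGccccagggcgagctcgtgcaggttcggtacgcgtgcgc
The match lies 120 bases before the start in Rsad2, 156 and 122 in Ifit3, 165 in Gbp5 and 43 in Hilpda.

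As summed levels, granule and cell cycle genes were highest in the ipsilateral library that held most maturing neutrophils, the 48 h library labelled Prdx1-/-. Of 17 tested primary and secondary granule genes 8 rose and 0 fell (median 1.71), and of 28 proliferation genes 18 rose and 0 fell (median 2.58). Of the granule genes only 2 were non-overlapping and higher and 3 lower, and of the proliferation genes 6 and 0. Over all genes these shares were 22.9% and 22.2%. The granule list summed to 18418, 19868, 11749 and 51612.5 CPM, lower at 48 h under the label WT, and the proliferation list to 1564, 1710, 1789 and 4855 CPM. With the 3 kinds of cells left out 0 granule genes rose and 1 fell (median -0.55), and of the 9 proliferation genes still tested 0 passed. Camp and Ltf are in the granule list and also chose the cells left out. The loss of the granule calls was thus built into that fit and is no test of their source. Camp (cathelicidin, an antimicrobial peptide of secondary granules) stood at 21.2, 1399, 1542 and 12246 CPM, the last of these from 177395 UMIs. Top2a, a topoisomerase of dividing cells, stood at 1, 10.8, 9.69 and 122 CPM, and Mpo at 0, 343, 3 and 8491 UMIs. The level under the label Prdx1-/- at 24 h was at or above that of WT at 48 h for Top2a and Mpo. Without the 48 h library labelled Prdx1-/- the log2 fold change of Mpo was -5.59.

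Among the genes that fell were some that neutrophils are not known for. Sox11, a transcription factor of neuroblasts, went from 287 and 283 UMIs at 24 h to 1 and 10 UMIs at 48 h, and Tubb2b, a tubulin of young neurons, from 203 and 345 to 1 and 5 UMIs (40.6, 55.6, 0.186 and 0.345 CPM). Both are among the 11 genes of which a cell needed at least 5 UMIs to count as a neuroblast-marker cell. Neither had enough counts to be tested once those cells were left out, which follows from that choice of cells and is no test of their source. Of 8 oligodendrocyte genes 4 fell, and the list summed to 189, 1448, 71 and 402 CPM, higher in the library labelled Prdx1-/- at each time. Ptgds, a prostaglandin D synthase, stood at 55.4, 701, 14.3 and 136 CPM, overlapping between times, and had a log2 fold change of 0.42 without the 24 h library labelled Prdx1-/-. The complement genes C1qa (127, 69.7, 26.3 and 24.0 CPM) and C1qb (151, 87.6, 43.6 and 35.1 CPM), which microglia and macrophages express strongly, fell by 1.90 (SE 0.32, adjusted p = 0.00315, 14 of 21) and 1.55 (SE 0.31, adjusted p = 0.00922, 14 of 21). The 15 microglia markers tested here (6 fell, 0 rose) summed to 2452, 2314, 2467 and 1334 CPM. Their part in the neutrophil results was not tested.

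**Figure D4:**
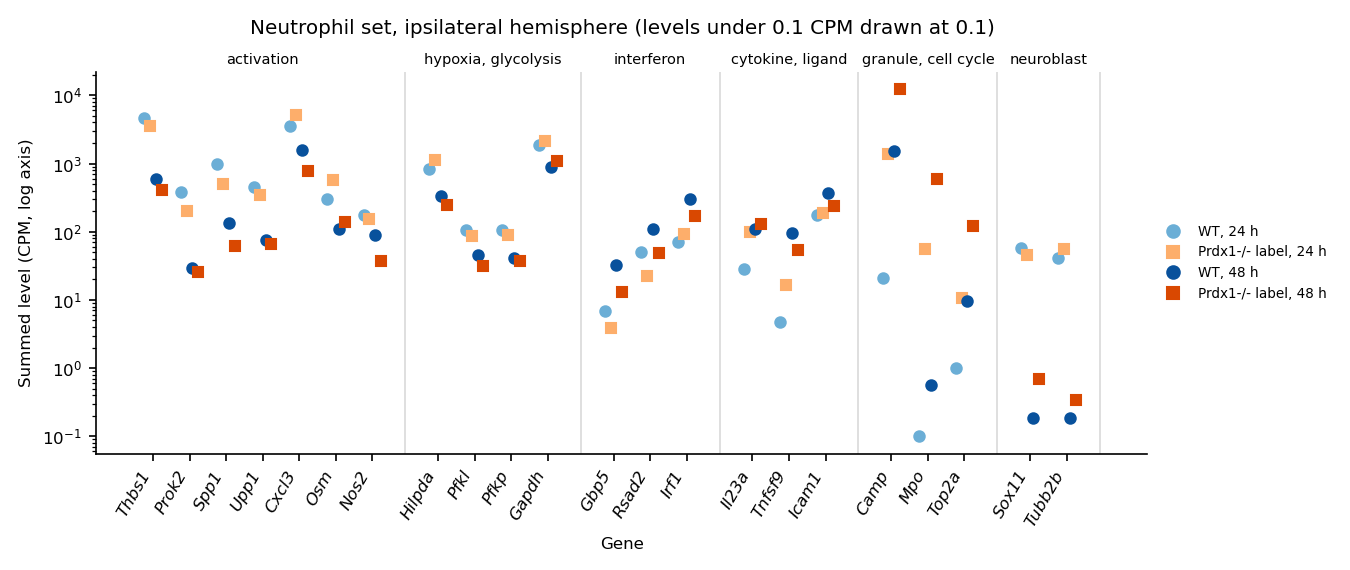
Summed level in the neutrophil set (y axis, CPM, log axis; levels under 0.1 CPM are drawn at 0.1) of genes grouped by role, 1 point per ipsilateral library. Thbs1, Prok2, Spp1 and Upp1 are lower in both 48 h libraries, Gbp5 and Irf1 higher, Camp, Mpo and Top2a highest in the 48 h library labelled Prdx1-/-, and Sox11 and Tubb2b are at 10 UMIs or fewer at 48 h.

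The step from 24 h to 48 h was then compared between the sets, with the library as a block. Of 12106 genes tested 0 passed (0.0%; edgeR's quasi-likelihood test, set by time term), with 1130 at an unadjusted p under 0.05, while 138 genes with the more positive step in the monocyte/macrophage set and 67 with the more positive step in the neutrophil set passed with mixed cells left out of both. Without WT at 24 h 35 passed, without Prdx1-/- at 24 h 36, without WT at 48 h 1734 and without Prdx1-/- at 48 h 661, with the library block kept and the lone library of a time assumed to vary like the others. DESeq2 was not run on this term. Values below are log2 differences, monocyte/macrophage step minus neutrophil step. Thbs1 fell in neutrophils and stood at 3169, 4119, 4344 and 3394 CPM in monocytes and macrophages, overlapping between times (0.09, SE 0.23, adjusted p = 0.918). The difference was 3.15 (SE 0.47, adjusted p = 0.0658, passing in 8 of 13 alternatives, with differences of 2.72 to 3.57). Rhov, a small GTPase, differed by 2.48 (SE 0.33, adjusted p = 0.0532, 10 of 13), and Tcf4, a transcription factor of the E-protein family, by 2.41 (SE 0.32, adjusted p = 0.0532, 10 of 13). Over the alternatives the difference was 2.23 to 2.72 for Rhov and 1.04 to 2.71 for Tcf4, the lowest with the 3 kinds of cells and the mixed cells left out. Rhov stood at 103, 68.6, 16.6 and 11.7 CPM in neutrophils and at 35.8, 27.8, 29.1 and 28.8 CPM in the other set, where the times overlapped.

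Il23a differed in the opposite sense, by -3.66 (SE 0.50, adjusted p = 0.0658, passing in 7 of 13 alternatives). It was lower at 48 h in monocytes and macrophages under both labels and higher in neutrophils under both. Scimp, an adaptor of antigen-presenting cells, differed by -3.28 (SE 0.55, adjusted p = 0.0997, 7 of 13), and Ptpn22, a phosphatase that restrains immune receptors, by -2.16 (SE 0.41, adjusted p = 0.119, 5 of 13). Scimp stood at 2.60, 10.5, 54.4 and 24.7 CPM in neutrophils and at 16.0, 18.2, 12.6 and 9.42 CPM in monocytes and macrophages. For Cxcl10, a chemokine induced by interferon, the difference was -1.44 (SE 0.33, adjusted p = 0.184, 5 of 13), although the median of the interferon response list was above 0 in both sets. Cxcl10 stood at 111, 106, 88.5 and 51.2 CPM in monocytes and macrophages and at 118, 81.2, 204 and 132 CPM in neutrophils.

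**Figure D5:**
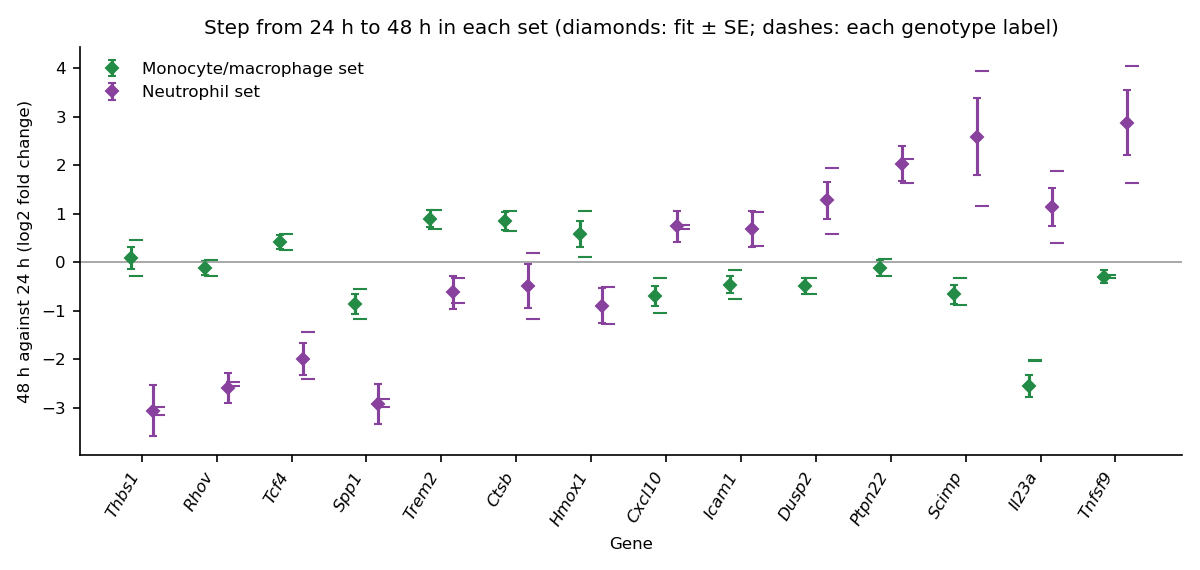
Log2 fold change of 48 h against 24 h (y axis) in the monocyte/macrophage and neutrophil sets, genes on the x axis; diamonds are the fitted value with its SE, and dashes are the ratio within each genotype label on log2(CPM + 1), which is smaller for low genes such as Il23a. Thbs1, Rhov and Tcf4 lie far below 0 in neutrophils (-3.06, -2.59 and -1.995) and near 0 in the other set (0.09, -0.12 and 0.42), and Il23a lies below 0 in monocytes and macrophages and above 0 in neutrophils.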

How the data were processed

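The data were single-cell UMI counts from 8 libraries (10x Genomics 3′ chemistry), of which the 4 ipsilateral ones were compared. The deposited counts are whole-number UMIs per gene and cell, made by the authors with Cell Ranger and Seurat on mm10, per the submitters' processing notes; the deposited cells had at least 501 UMIs and 204 genes and at most 19.9% mitochondrial UMIs. Cells under 200 genes or over 10% mitochondrial UMIs were dropped, and doublets marked by Scrublet as in scanpy 1.11.5 were left out at an assumed rate of 0.8% per 1000 cells. Members and gene lists were chosen with earlier results of these data known.

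UMIs were summed per library and set, and genes with enough counts (edgeR's filterByExpr) were tested for 48 h against 24 h with edgeR 4.0.16 (quasi-likelihood, trimmed mean of M values scaling, genotype label as a term, Benjamini-Hochberg adjustment over all genes tested), and for the difference between sets with library as a block. With 4 libraries the fit has few degrees of freedom and borrows the spread across genes. Sums held 10203849 to 40366875 UMIs for monocytes and macrophages and 4657513 to 12681377 for neutrophils. CPM are on the scaled totals. The scaling factors were 0.853, 0.884, 1.155 and 1.148 in the neutrophil set and 0.991, 0.964, 1.004 and 1.042 in the other set. They thus separated by time, and in neutrophils they lower 48 h CPM against 24 h CPM. No fit was run on unscaled totals. Tested on simulated data with 2-, 4- and 8-fold changes, the fit called 28.4%, 100% and 100% of changed genes for monocytes and macrophages and 17.9%, 94% and 100% for neutrophils. The simulation gave all genes of a set the same spread, with no difference between labels and no library that stood apart. It changed only genes with many UMIs. These shares therefore do not carry over to the data, where a gene that did not pass may still have changed.

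Named genes were the 8 of largest change per direction among those that passed with a mean of at least 20 CPM, up to 3 per list, and 5 per direction of the difference between sets; others were added to describe a list after their values were seen. The result of 1 gene is not reported here. Alternatives covered the gates, filters, doublets, scaling, DESeq2 1.42.0, all 8 libraries and each library left out. Fits without cells of other kinds were added after seeing the data. Intervals for shares are exact binomial. Versions were R 4.3.3, limma 3.58.1, Python 3.11.15, scipy 1.17.1 and matplotlib 3.10.9. Sequences are from RefSeq, GRCm38.p6.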

Additional observations from a re-analysis of the deposited data

How the results depend on the processing

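The direction of 46 of 51 named genes of the monocyte/macrophage set, 56 of 60 of the neutrophil set and 11 of 12 of the difference held in every setting run. The mean of each share was higher at 48 h in all, although out of the cells under the microglia limit the times overlapped in both sets. The 8 calls of the monocyte/macrophage set became 17 (looser gate), 98 (stricter gate), 28 (microglia limit of 5), 691 (other set kept out), 0 (doublets kept, 1499 at an unadjusted p under 0.05), 18 (mitochondrial limit of 5%), 146 (immature neutrophils left out), 13 (T, NK and B cells left out), 14 (neuroblast transcripts left out), 636 (all 3 kinds left out), 0 (relative log expression scaling, 1471 unadjusted), 385 (no low-count filter), 0 (no genotype term, 1615 unadjusted), 196 (DESeq2) and 0 (all 8 libraries, 1113 unadjusted). Leaving out 1 library gave 0 to 421. The 416 calls in neutrophils became 95 (doublets kept), 208 (immature left out), 1 (T, NK and B left out), 193 (neuroblast transcripts left out), 236 (all 3 kinds), 827 (no low-count filter), 1 (no genotype term) and 0 (all 8 libraries, 1043 unadjusted), and 27 to 1817 without 1 library. The difference between sets went from 0 to 13 (looser gate), 205 (other set kept out), 9 (immature left out), 495 (all 3 kinds), 22 (relative log expression), 212 (no low-count filter) and 35 to 1734 without 1 library. Without the 48 h library labelled Prdx1-/-, log2 fold changes turned to -1.55 (Ctsg, up to 6.87 without another library), -1.77 (Ms4a3, up to 6.85), -2.57 (Elane, up to 6.35) and -0.25 (Rrm2, up to 5.07) in monocytes and macrophages and to -5.59 (Mpo) and -5.46 (Elane, up to 15.42, with 0 UMIs in the WT 24 h library) in neutrophils. Thbs1 in monocytes and macrophages turned to -0.0055 with no raw-count conditions, and was -0.12 to 0.29 without 1 library. In neutrophils, without 1 library, Ptgds was -4.71 to 0.42 and Il1b -0.86 to 0.14, and Il1b turned to 0.021 with all 3 kinds left out. Tubb2b turned to -0.74 in the difference with all 3 kinds left out. Fits of a set without 1 library also lack the genotype term. Apart from that and from fewer samples or genes tested, the cause was not tested. Libraries were paired by genotype label through the genotype term, whose removal is among the settings above.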

Other observations

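In monocytes and macrophages 6 genes known as members of the amino acid response, which the transcription factor ATF4 drives, are given as values. They were chosen after their values were seen, from no list, and stand for no test of that response. Atf5, a transcription factor of that response, stood at 38.1, 33.0, 11.4 and 11.9 CPM (log2 fold change -1.61, SE 0.15, adjusted p = 0.0623 by edgeR, passing in 12 of 21 alternatives, -1.71 to -1.51). Sars, which charges transfer RNA with serine, stood at 97.0, 80.0, 44.8 and 42.7 CPM, and Mars, its methionine counterpart, at 44.0, 28.5, 14.5 and 14.5 CPM. The 24 h libraries lay above the 48 h libraries in all 3 genes. Asns (asparagine synthetase) stood at 53.2, 24.2, 5.48 and 9.48 CPM, and Mthfd2, a mitochondrial folate enzyme, at 100.004, 59.6, 27.5 and 30.9 CPM. Trib3, a pseudokinase induced by the same response, had 8.51, 5.58, 1.16 and 1.41 CPM. By edgeR 0 of the 6 passed in the fit of all cells of the set, although each had an unadjusted p under 0.05 and each passed by DESeq2. They passed in 3 (Asns), 4 (Mthfd2), 5 (Mars), 8 (Sars), 8 (Trib3) and 12 (Atf5) of 21 alternatives.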
